A study of Saccharomyces cerevisiae with 2 samples.

Results

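The proteasome is the protease complex that degrades ubiquitin-tagged proteins in the cytoplasm and nucleus of every eukaryotic cell. Its barrel-shaped core stacks rings of alpha subunits, which form the gate, on rings of beta subunits, some of which carry the proteolytic sites. A regulatory particle caps the core, with a base that holds a ring of ATPases for unfolding substrates and a lid that removes ubiquitin. Dedicated chaperones assemble the core and the base and are not part of the finished complex. In yeast, the transcription factor Rpn4 activates the proteasome genes by binding a promoter element known as the proteasome-associated control element (PACE), and Rpn4 is itself a rapidly degraded proteasome substrate.

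The genes described are 44 rows of the deposited table, chosen by systematic name. They are 33 subunit genes and 11 others. The subunits comprise 14 of the core, 9 of the base, 9 of the lid, and RPN10, which bridges base and lid. The others are RPN4, 8 assembly chaperones, and BLM10 and ECM29, which bind finished or maturing proteasomes. All 44 were among the 4685 listed genes and passed the filter applied here, a mean of the RNA and footprint values of at least 5 RPKM (reads normalised to gene length and library depth), which left 4642 genes. They lie on 13 chromosomes of assembly R64, and none overlaps another annotated protein-coding gene.

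RNA-seq and ribosome profiling, which sequences the mRNA fragments that ribosomes protect, were carried out on the haploid Saccharomyces cerevisiae strain BY4741 grown in rich glucose medium to mid-log phase. There was 1 RNA library, from cytoplasmically enriched RNA, and 1 footprint library, with no treatment and no second strain. Of LEU2, URA3 and MET17, which are deleted in BY4741, 0 of 3 were listed, and the MATa-specific genes STE2 and MFA2 had 315 and 1769 RPKM of footprints. Without replicates no value has an error and no difference between genes was tested, and the depth of the libraries is unknown. The values average over the culture, so fewer cells with an mRNA and less mRNA per cell cannot be told apart.

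Ribosome density below means log2 of footprint RPKM over RNA RPKM, relative to the median gene, whose ratio was 0.821. A density of 1 is therefore 2-fold above the median gene.

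The mRNAs of the proteasome subunits had closely matched levels. RNA values ran from 144 RPKM for RPN9 to 317 RPKM for PRE9, a 2.20-fold range over 33 genes, with a median of 216 RPKM. All 33 lay within 1.5-fold of that median, a band that held 10.7% of the 4642 genes. The SD over subunits of log2 RNA was 0.29, against 1.61 over all analysed genes. Footprint values ran from 145 RPKM for RPN9 to 571 RPKM for SEM1, with a median of 264 RPKM, and 29 of 33 lay within 1.5-fold of the median. The exceptions were SEM1 and PRE9 above, and RPN9 and RPN3 below. The subunit medians stood at the 88.1st percentile of all analysed genes for RNA and the 88.4th for footprints. By RPKM times coding length, the 33 genes accounted for 0.845% of RNA and 0.933% of footprints over the whole table.

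**Figure D1:**
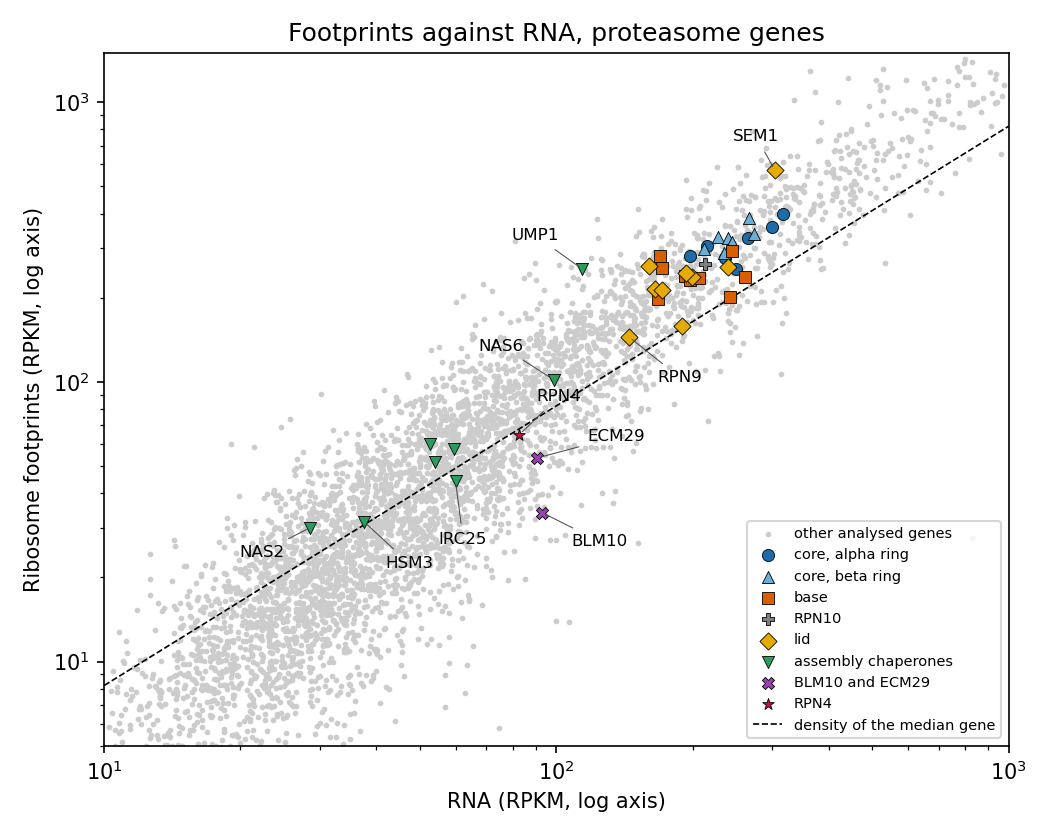
Footprint RPKM against RPKM of RNA, both on log axes, for the 44 proteasome genes by class (symbols) and the other analysed genes that fall within the axes (grey); the dashed line is the density of the median gene. The subunits form a tight cloud between 144 and 317 RPKM of RNA, UMP1 reaches their footprint level from 114 RPKM of RNA, and the other chaperones lie lower on both axes.

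Ribosome density was above that of the median gene for all 33 subunits, a state that 50% of all analysed genes have by definition. The count was 28 when density was centred on total footprint over total RNA, which lowers every density by 0.38, and 30 when the median gene was taken from the 3731 genes whose mean reached 20 RPKM. The subunit median was 0.59, and 19 of 33 exceeded the median gene by over 1.5-fold, against 21.7% of all analysed genes. The count over 1.5-fold was 3 and 9 under the same alternatives, and 7 with density adjusted for coding length as described further on. More than 2-fold above were SEM1 and RPN13, against 6.79% of all analysed genes.

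The upstream sequences of most subunit genes held the exact PACE element. PACE was known beforehand as an element of proteasome genes. Its frequency here against that in all genes is therefore a description, not an independent result. The 300 bases before each annotated start codon were searched on both strands for GGTGGCAAA, the PACE sequence known from yeast. It was found once before each of 27 of 33 subunit genes, in 12 of 14 of the core, 8 of 9 of the base and 7 of 9 of the lid. The same letters were found before 73 of 6001 protein-coding genes with a full window, or 1.22%. The remaining 6 subunits had a sequence that differs from it at a single base. RPN10, RPN13 and SEM1 had GGTGGCGAA, present before 0.433% of all genes, and PRE5, PUP1 and RPN8 had AGTGGCAAA, present before 0.850%. Both forms were picked from these same genes, so their shares add nothing to the count with 1 mismatch. With at most 1 mismatch allowed, 33 of 33 subunits and 7.73% of all genes had a match. A match describes the letters in the window and does not show that a factor binds there.

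The following sites, read from assembly R64, show the exact form in each part of the complex and then every form that deviates among the subunits. Capitals mark the 9 bases of the element, whose position is given, and 9 flanking bases stand on each side in lower case, 5′ to 3′ on the strand that carries the element. Substitutions count from 1 at the first base of GGTGGCAAA.
SCL1, alpha ring (chrVII:475347-475355, plus strand): tatccttacGGTGGCAAAttggtgtgt
PRE2, beta ring (chrXVI:732194-732202, plus strand): cagcaaaagGGTGGCAAAacgaagaat
RPT2, base ATPase (chrIV:437916-437924, plus strand): tttttctccGGTGGCAAAtgtctcttt
RPN11, lid (chrVI:153269-153277, plus strand): gacctccaaGGTGGCAAAttcacaaga
RPN10, A7G (chrVIII:498978-498986, minus strand): gtaaattccGGTGGCGAAaacccgcct
RPN13, A7G (chrXII:965666-965674, minus strand): tattcgcgaGGTGGCGAAagctttgct
SEM1, A7G (chrIV:1202017-1202025, plus strand): agtgctatgGGTGGCGAAcgtggtggg
PRE5, G1A (chrXIII:901562-901570, plus strand): ctattatagAGTGGCAAAattaaaaat
PUP1, G1A (chrXV:631901-631909, minus strand): acccggccgAGTGGCAAAataccaaaa
RPN8, G1A (chrXV:817095-817103, minus strand): ggatacctcAGTGGCAAAtcgttactc

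The elements lay at similar distances from the start codon. Taking the exact match where a gene had one, over the 33 subunits the gap between the element and the start codon ran from 75 nt (RPT6) to 174 nt (PUP3), with a median of 111 nt. PRE6 had a further match with 1 mismatch at 60 nt. Genes outside the 44 had 37 exact matches that were not shared with a subunit. These were counted per gene, so a site before neighbouring genes counts once for each. Of the 37, 16 lay in the same range of distances, and all 37 ran from 27 to 254 nt. Of the 27 exact elements, 19 read in the direction of the gene and 8 in the opposite direction. Subunits with the exact element had a median of 212 RPKM of RNA, from 144 to 317, and the 6 with a deviating element had a median of 239 RPKM, from 170 (RPN13) to 304 (SEM1). The ranges overlapped almost entirely, so RNA level did not separate the forms of the element.

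Of the other 11 genes, 1 had the exact element, against 1.22% of all protein-coding genes. With at most 1 mismatch allowed, 2 of the 11 had a match, against 7.73%. None of the 8 assembly chaperones had GGTGGCAAA in the window, as holds for all but 1.22% of protein-coding genes, and UMP1, POC4, ADD66, IRC25, NAS2, NAS6 and HSM3 had no match with at most 1 mismatch either. PBA1 had 2 such matches, the nearer with A9C. RPN4 and BLM10 had none. With at most 1 mismatch allowed, 1 of 8 chaperones thus had a match, against 7.73% of all genes. ECM29 was the only gene of the 11 with the exact element, shown here with its flanks because its RNA level was unlike that of the subunits.
ECM29 (chrVIII:39953-39961, plus strand): ccttttcttGGTGGCAAAaaaaaggta

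Genes outside the complex that had the element varied widely in RNA. Besides the members, 45 genes had GGTGGCAAA in their window, and 8 of these shared the very same site with a subunit gene nearby. Of the rest, 30 were analysed, and their RNA ran from 11.9 to 878 RPKM with a median of 82.1 RPKM. Of the 30, 5 fell in the RNA range of the 33 subunits, a range that held 10.4% of all analysed genes.

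**Figure D2:**
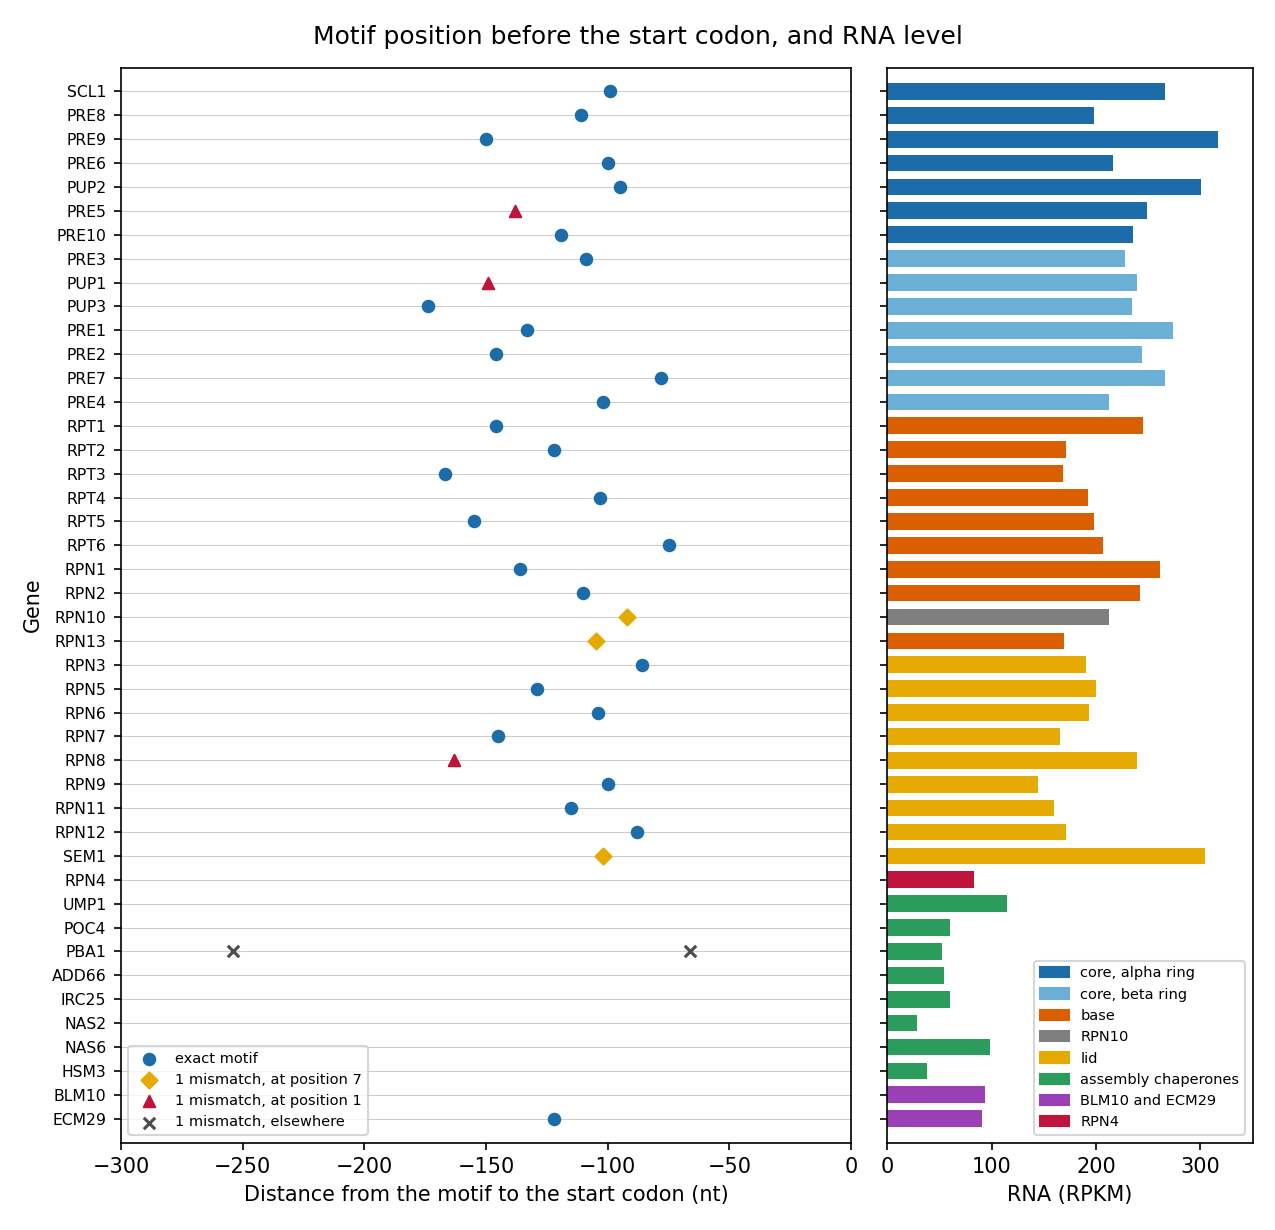
Left, distance in nt between the element and the start codon for each gene, with exact matches or, where there is none, matches with 1 mismatch by symbol; right, RNA in RPKM as bars from 0, coloured by class. All 33 subunits have a mark between 75 and 174 nt, while among the 8 chaperones only PBA1 has marks, and the chaperone bars are shorter than every subunit bar.

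In the core, both rings had similar levels and the beta ring the more even ones. The alpha genes had 198 to 317 RPKM of RNA and 254 to 397 RPKM of footprints, with medians of 249 and 307. The beta genes had 212 to 274 RPKM of RNA and 289 to 385 RPKM of footprints, with medians of 240 and 327. The SD over genes of log2 footprint was 0.13 in the beta ring and 0.22 in the alpha ring.

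PRE9 (YGR135W, chromosome VII, 761392 to 762168), the alpha subunit that yeast can live without, had the most RNA of the 44 genes, 317 RPKM, and 397 RPKM of footprints, a density of 0.61. PUP2 (YGR253C) followed in the alpha ring with 300.2 RPKM of RNA and 357 of footprints. PRE5 (YMR314W), at the bottom of the ring, had 249 RPKM of RNA but 254 of footprints, and its density of 0.31 was the lowest in the core. Between them in footprints lay SCL1 (YGL011C, 327 RPKM), PRE6 (YOL038W, 307 RPKM), PRE8 (YML092C, 282 RPKM) and PRE10 (YOR362C, 277 RPKM). The order in footprints was thus not the order in RNA, since PRE8 and PRE6 had the least RNA of the ring, 198 and 216 RPKM, and its highest densities, 0.80 and 0.79.

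The 3 catalytic beta subunits had nearly identical footprint levels. PRE3 (YJL001W), with caspase-like activity, had 228 RPKM of RNA and 329 of footprints. PUP1 (YOR157C), with trypsin-like activity, had 240 RPKM of RNA and 327 of footprints. PRE2 (YPR103W), with chymotrypsin-like activity, had 244 RPKM of RNA and 316 of footprints. Their footprint values spanned 1.04-fold and their RNA values 1.07-fold. The 4 other beta genes spanned 1.33-fold in footprints, from PUP3 (YER094C, 289 RPKM) through PRE4 (YFR050C, 299 RPKM) and PRE1 (YER012W, 338 RPKM) to PRE7 (YBL041W, 385 RPKM). Densities in the beta ring ran from 0.59 (PRE1 and PUP3) to 0.82 (PRE7 and PRE3), and all 7 lay above the alpha ring's median of 0.58.

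The regulatory particle had lower levels than the core. Its 19 genes had medians of 193 RPKM of RNA and 238 RPKM of footprints, against 242 and 321 for the core, so the core median was 1.25-fold higher in RNA and 1.35-fold higher in footprints. All 14 core genes were above the regulatory particle's median in footprints, and 12 of its 19 genes were below the lowest core gene. SEM1 was its only gene above the core median. Median density was 0.54 in the regulatory particle and 0.63 in the core.

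**Figure D3:**
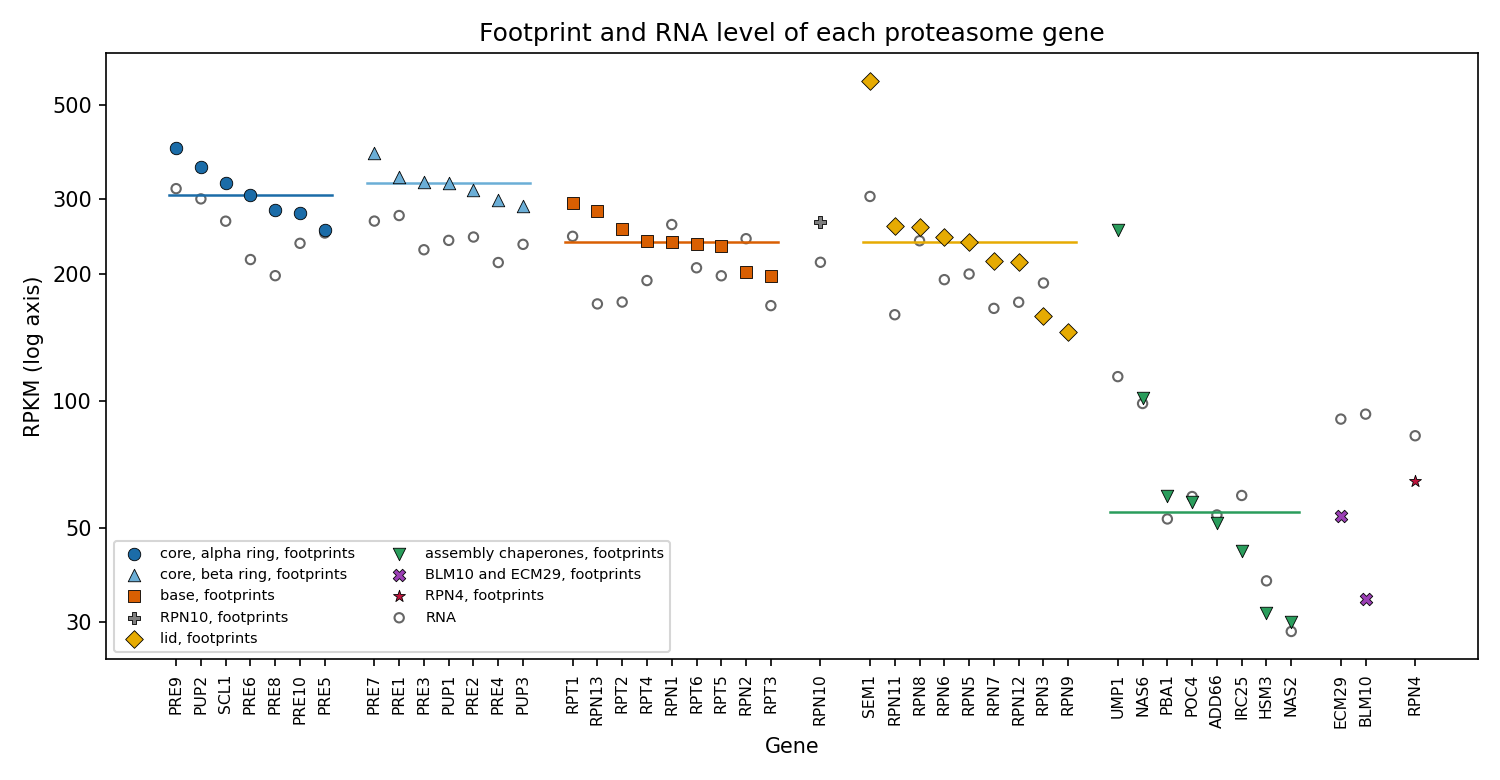
Footprint RPKM (filled symbols) and RPKM of RNA (open circles) of each gene on a log axis, ordered by footprints within each class; horizontal lines are class medians of footprints. The core lies between 254 and 397 RPKM of footprints, base and lid have medians of 237 and 238 RPKM, and 7 of the 8 chaperones lie below every subunit.

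Base and lid had matching medians, and the base was the more even in footprints. The median footprint value was 237 RPKM in the base and 238 RPKM in the lid, a ratio of 0.995. The median of RNA was 198 RPKM in the base and 190 in the lid. Footprints spanned 1.48-fold in the base and 3.94-fold in the lid, and the SD over genes of log2 footprint was 0.19 and 0.56. Most of the lid's width came from SEM1, without which the lid spanned 1.78-fold with an SD of 0.32. The SD of log2 RNA was 0.24 in the base and 0.33 in the lid, or 0.23 without SEM1. For density these SD values were 0.31, 0.35 and 0.28, so without SEM1 the lid was the more even in both. All 9 base genes lay inside the lid's range of footprints, and 6 of 9 lid genes lay inside the base's range, with RPN3 and RPN9 below it and SEM1 above. Median density was 0.52 in the base and 0.60 in the lid, a difference of -0.08 that turned to 0.31 in favour of the base when density was adjusted for coding length.

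The 6 ATPases of the base, which unfold substrates and thread them into the core, had 168 to 245 RPKM of RNA and 197 to 293 RPKM of footprints. RPT1 (YKL145W) was highest in footprints with 293 RPKM, followed by RPT2 (YDL007W, 254.5 RPKM), RPT4 (YOR259C, 238.5 RPKM), RPT6 (YGL048C, 235 RPKM), RPT5 (YOR117W, 232 RPKM) and RPT3 (YDR394W, 197 RPKM). RPT2 stood out by density, 0.86, from 171 RPKM of RNA. The 5 others lay between 0.47 (RPT6) and 0.59 (RPT4).

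The large base scaffolds RPN1 and RPN2 had footprints in the range of the ATPases, and more RNA than the ATPases other than RPT1. RPN1 (YHR027C) had 261 RPKM of RNA and 237 of footprints. RPN2 (YIL075C) had 242 RPKM of RNA and 202 of footprints. With 2982 and 2838 nt they have the longest coding sequences among the subunits, and their densities of 0.14 and 0.03 were among the 3 lowest. The ubiquitin receptor RPN13 (YLR421C) had the reverse pattern, with 170 RPKM of RNA, 281 of footprints, a coding length of 471 nt and a density of 1.02. RPN10 (YHR200W), the other dedicated ubiquitin receptor, had 213 RPKM of RNA, 264 of footprints and a density of 0.60.

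In the lid, RPN11 and RPN8 had nearly equal footprints from unequal RNA. RPN11 (YFR004W), the deubiquitinase, had 160 RPKM of RNA and 259 of footprints, a density of 0.98. RPN8 (YOR261C), its partner of the same fold, had 239 RPKM of RNA and 257.5 of footprints, a density of 0.39. The RNA of RPN8 was 1.495-fold that of RPN11, and the footprint ratio was 0.995.

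The 6 scaffold subunits of the lid that share the PCI domain had 145 to 244 RPKM of footprints. RPN6 (YDL097C, 244 RPKM), RPN5 (YDL147W, 238 RPKM), RPN7 (YPR108W, 214 RPKM) and RPN12 (YFR052W, 213 RPKM) lay close together, with densities of 0.54 to 0.66. RPN3 (YER021W) had 190 RPKM of RNA but 158 of footprints, and its density of 0.02 was the lowest of the subunits. RPN9 (YDR427W, chromosome IV, 1322205 to 1323386) had the least of both among the subunits, 144 RPKM of RNA and 145 of footprints, with a density of 0.29. Both genes were thus below the other 4 in density as well as in footprints, and RPN9 was also the lowest in RNA. SEM1 (YDR363W-A, chromosome IV, 1202128 to 1202397), a small acidic lid subunit that is also part of an mRNA export complex, had 304 RPKM of RNA and 571 of footprints. Its footprints were 1.44-fold those of PRE9, the next subunit, at a coding length of 270 nt and a density of 1.19.

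The assembly chaperones were less abundant than the subunits in both libraries, with the exception of UMP1 in footprints. Their medians were 56.7 RPKM of RNA and 54.6 RPKM of footprints, so the subunit medians were 3.81-fold and 4.84-fold higher. All 8 chaperones had less RNA than the lowest subunit, as did 81.6% of all analysed genes. In footprints 7 of 8 were below the lowest subunit, against 79.7% of all analysed genes. These shares place the chaperones at the level of ordinary genes: their median was at the 55.4th percentile for RNA and the 59.3rd for footprints.

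UMP1 (YBR173C, chromosome II, 581726 to 582172), which is enclosed in the maturing core and degraded once the core is complete, had 114 RPKM of RNA and 253 of footprints. Its RNA was 0.472 of the core median, and its footprints were 0.787 of it and above those of 12 of the 33 subunits. The density of 1.43, or 2.70-fold the median gene, was the highest of the 44 genes and ranked 61 among all 4642. Its length of 447 nt is shared by POC4, which had a density of 0.24.

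The other core chaperones act as heterodimers, and partners had equal RNA. POC4 (YPL144W) and IRC25 (YLR021W), which together guide the alpha ring, had 59.5 and 59.8 RPKM of RNA and 57.6 and 44.1 of footprints. PBA1 (YLR199C) and ADD66 (YKL206C), the second such pair, had 52.7 and 53.8 RPKM of RNA and 59.8 and 51.6 of footprints. Within pairs the RNA ratios were 0.994 and 0.978, and the footprint ratios 1.31 and 1.16. The 4 genes spanned 1.14-fold in RNA and 1.35-fold in footprints. IRC25 had the lowest density of the chaperones, -0.15.

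The base chaperones, each of which binds a particular ATPase, were less even. NAS6 (YGR232W), a partner of Rpt3, had 98.7 RPKM of RNA and 102 of footprints. HSM3 (YBR272C), which binds Rpt1, had 37.6 and 31.5 RPKM. NAS2 (YIL007C), which binds Rpt5, had 28.6 RPKM of RNA and 30.1 of footprints, the lowest values of the 44 genes. The footprints of NAS6 were 3.23-fold those of HSM3 and 3.38-fold those of NAS2. RPN14, a further base chaperone that is not among the 44, had 21.2 RPKM of RNA and 22.4 of footprints. Base chaperones had a median of 31.5 RPKM of footprints, against 237 for the base subunits they act on.

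Chaperone densities were lower than subunit densities but above the median gene in 7 of 8. The medians were 0.28 and 0.59, a difference of -0.31, and 7 of 8 chaperones lay below the subunit median. That median was at the 78.9th percentile of all analysed genes, so most genes lay below it too. Apart from UMP1, the chaperones lay between -0.15 and 0.47, whereas the subunits ran from 0.02 to 1.19, so the ranges overlapped. The chaperone median itself changed sign, to -0.16, with density adjusted for coding length, and to -0.093 with centring on total footprint over total RNA.

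Coding length went with density over the 33 subunits together, but not within every part of the complex. Over all analysed genes shorter genes had higher density, with a Spearman rho of -0.62, and over the 33 subunits the rho was -0.52 (a description across genes of the same 2 libraries). The rho was -0.58 over the 19 genes of the regulatory particle but -0.11 over the 14 of the core. Over the 6 ATPases it was 0.81. A gene's neighbours were the 100 genes on each side in coding length. Near either end of the length range they were a fixed block of the shortest or longest genes. The length-adjusted density is the density minus the median density of these neighbours. On that scale 31 of 33 subunits lay above the genes of their length, against 49.9% of all analysed genes, the exceptions being PRE5 (-0.17) and PRE1 (-0.003). The subunits' median was 0.34, and the chaperone minus subunit difference was larger on this scale, at -0.49. The chaperones have shorter coding sequences than the subunits, with medians of 675 and 864 nt. The adjusted medians were 0.58 for the base, 0.28 for the lid and 0.27 for the core, so the core no longer led. RPT2 was the highest subunit (0.85), and RPN1 (0.73) and RPN2 (0.60) moved into the upper part. SEM1, set against the block of the shortest genes, lay at 0.21. Of the chaperones, 3 of 8 lay above genes of their length, which were UMP1 (0.65), HSM3 (0.16) and PBA1 (0.14). IRC25 (-0.77) and POC4 (-0.54) were lowest.

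**Figure D4:**
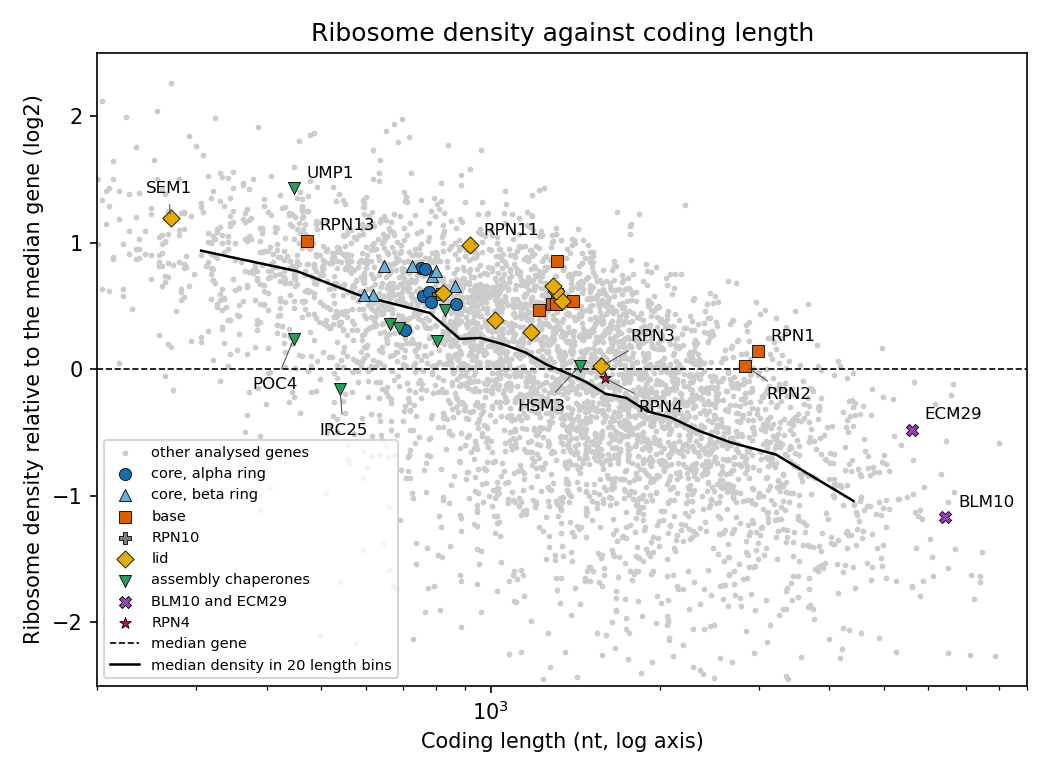
Ribosome density relative to the median gene (log2) against coding length in nt on a log axis; the dashed line is the median gene, the solid line the median density in 20 bins of length, and grey points are other analysed genes within the axes. Nearly all subunits sit above the solid line, the large RPN1 and RPN2 included, whereas POC4 and IRC25 sit below it and UMP1 well above.

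Subunits and chaperones also differed in codon use. Codon adaptation, the geometric mean of codon weights taken from 132 cytosolic ribosomal protein genes, had a median of 0.245 in the subunits, 0.182 in the chaperones and 0.199 in all analysed genes. Of the subunits 29 of 33 were above the median gene, and of the chaperones 6 of 8 were below it. POC4 had 0.111, at the 0.98th percentile of all analysed genes, and ADD66 had 0.142. NAS6, at 0.250, was the highest chaperone. Within the subunits, however, density and codon adaptation ran in opposite directions, with a Spearman rho of -0.41 over 33 genes, while over all analysed genes the rho was 0.38. An adenine 3 bases before the start codon, part of the favoured yeast start context, was present in 26 of 33 subunits (78.8%), 5 of 8 chaperones and 61.4% of all analysed genes.

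The genes that regulate or cap the proteasome lay between chaperone and subunit medians in RNA, and below every subunit in footprints. RPN4 (YDL020C) had 82.8 RPKM of RNA and 64.7 of footprints, a density of -0.07, with less RNA than any subunit. BLM10 (YFL007W), an activator that caps the core, had 93.1 RPKM of RNA and 34.1 of footprints. ECM29 (YHL030W), an adaptor that holds core and regulatory particle together, had 90.6 RPKM of RNA and 53.4 of footprints. BLM10 and ECM29 thus had nearly equal RNA, and their footprints differed 1.57-fold. Their densities were -1.17 and -0.48, and BLM10 was the only one of the 44 genes more than 2-fold below the median gene, a state of 13.1% of all analysed genes. They have the longest coding sequences of the 44, 6432 and 5607 nt. On the length-adjusted scale BLM10 lay at -0.10 and ECM29 at 0.59. Both were set against the same block of the longest genes, which is not centred on their own lengths.

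Other genes linked to the ubiquitin-proteasome pathway varied far more than the subunits. The 24 genes chosen include transcription factors, such as PDR1 and YAP1, that are not parts of the pathway itself. Of the 24, 23 were listed and UBI4 was not analysed for its level here. The 23 had RNA from 21.2 to 708 RPKM and a median density of 0.36. In density 15 were above the median gene and 8 below. Of the 23, 2 were more than 2-fold above, against 6.79% of all analysed genes, and 4 more than 2-fold below, against 13.1%. Above were TMA17, a chaperone of the base under stress (1.11), and the shuttle protein DDI1 (1.01). Below were UBR2 (-1.72) and MUB1 (-1.19), parts of the ligase that marks Rpn4 for degradation, the ligase UBR1 (-1.18) and the transcription factor PDR1 (-1.19). The shuttle proteins DSK2 and RAD23 had 413 and 261 RPKM of footprints, the first above all subunits but SEM1 and the second close to the subunit median, and the unfoldase CDC48 had 868. The exact element GGTGGCAAA preceded 4 of the 24 genes, against 1.22% of all protein-coding genes. The 4 were CDC48, the ubiquitin-activating enzyme UBA1, the polyubiquitin gene UBI4 and the transcription factor YAP1. Its GGTGGCGAA form preceded 3 of the 24, RAD23, UFD1 and SHP1, against 0.433% of all genes. With at most 1 mismatch allowed, 12 of the 24 had a match, against 7.73%. The 24 were chosen with earlier results of these data known.

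Evenness comparable to that of the proteasome core was also seen in other complexes with fixed proportions. The 8 genes of the CCT chaperonin, a double ring that folds actin and tubulin, had footprints from 223 RPKM (CCT7) to 318 (CCT5), a 1.43-fold range with an SD of 0.20. The 6 genes of prefoldin, which hands clients to CCT, ran from 173 RPKM (GIM3) to 234 (YKE2), a 1.35-fold range with an SD of 0.20. The core spanned 1.56-fold with an SD of 0.18. In RNA the SD was 0.19 for the core, 0.26 for CCT and 0.39 for prefoldin. CCT and the proteasome also had like levels, with median footprints of 267 and 264 RPKM, but the median density of CCT, 0.33, was below that of the subunits. No test of these differences between complexes was possible with 1 library per assay.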

How the data were processed

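The deposited table holds RPKM values per gene for 1 RNA-seq and 1 footprint library, computed by the authors, and their log2 ratio, which the deposited header calls log2(TE). Per the file headers, genes with at least 10 RPM of RNA and more than 0 RPM of footprints were kept. Per the submitters' processing notes, the build was sacCer3. The sources used here give neither the aligner nor the counting rule, nor whether strand was used. All 4685 identifiers matched the NCBI annotation of R64, the assembly that sacCer3 names, which gave symbols, positions, coding lengths and the upstream sequence.

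The deposited log2 ratio equalled that of the RPKM columns to within 1.63e-09. Density used no pseudocount, a minimum mean of 5 RPKM, and centring on the median gene. Python 3.11.15, pandas 2.3.3 and Biopython 1.88 were used, and calculations were tested on simulated data. With 1 library per assay there was no test. RPKM is compared between genes per length only, and depth, hence precision, is unknown. Members and lists were chosen with earlier results of these data known. All members are named. Of other pathway genes, the 2 highest and lowest in density and those beyond 2-fold are named by rule, as are the highest and lowest in footprints for CCT and prefoldin. RPN14, DSK2, RAD23, CDC48 and the genes named for their upstream element were chosen after their values were seen, as were the GGTGGCGAA and AGTGGCAAA forms of the element.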

Additional observations from a re-analysis of the deposited data

How the results depend on the processing

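Of 72 alternative values for 13 results, 48 stayed close to the reported value (within 0.1 on the log2 scale, or within 1.5-fold for counts), 18 moved further and 6 changed sign. Some of the 48 could not have moved. Other centring or filters shift every density alike, so the chaperone minus subunit (-0.31) and base minus lid (-0.08) differences stay the same by construction. No paired analysis was possible because each assay had 1 library and the labels carry no replicate numbers. With centring on total footprint over total RNA, median densities were 0.26 for the core, 0.14 for the base, 0.22 for the lid and -0.093 for the chaperones, and 3 subunits were more than 1.5-fold above. With a mean RPKM of at least 20 these values were 0.45, 0.34, 0.42, 0.10 and 9. With length-adjusted density they were 0.27 for the core, 0.28 for the lid, -0.16 for the chaperones and 7 subunits, the chaperone minus subunit difference was -0.49, and the base minus lid difference 0.31. The chaperone to subunit ratio of median footprints, 0.206, was 0.133 for base genes alone, 0.179 for core genes alone, 0.262 in RNA and 0.163 after division by the length trend. For base genes alone the density difference was -0.19. The base to lid ratio, 0.995, was 1.05 without SEM1, 1.04 in RNA and 1.10 after division by the length trend, so base and lid had no stable order. Apart from the length adjustment, whose construction sets genes against others of their length, the causes were not tested. Windows of 200 and 500 nt, chosen after seeing the data, gave the same 27 subunits with GGTGGCAAA, beside 0.967% and 1.65% of all genes. Coding lengths may differ from those the authors used, and without replicates or known depth small differences between genes cannot be told from counting error.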
